A study of Mus musculus with 13 samples.

Results

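The E2F transcription factors and the retinoblastoma (RB) pocket proteins that bind them were examined in bulk RNA-Seq of mouse glomeruli in experimental membranous nephropathy (MN). The set was defined by gene name and holds 10 genes: E2f1 to E2f8, Rb1 and Rbl1. All 10 were among the 35967 gene symbols of the expression table, and all 10 were among the 14322 genes that passed the filter on low values. Glomeruli came from wildtype male Balb/c mice that received 2 mg of IgG into the peritoneum. Control animals were given rabbit preimmune IgG (5 libraries), and MN animals were given anti-THSD7A IgG, an antibody against a podocyte surface protein, and were killed at day 1 (4 libraries) or day 5 (4 libraries). Control animals of both days form a single group, so a day could not be matched to its own controls, and every mouse received rabbit IgG. Kidneys were perfused with magnetic beads to isolate glomeruli, and the labels give a separate library, with no further link, for each replicate number. Values are TPM, a level scaled to transcript length and to the library's total, which keeps no record of sequencing depth, so the depth behind each value is unknown.

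E2F factors bind promoters of genes needed for DNA replication and cell division. E2F1, E2F2 and E2F3 are the activators, which RB holds inactive until cyclin-dependent kinases phosphorylate it, whereas E2F4 and E2F5 repress cell cycle genes in resting cells together with the pocket proteins p107 (the product of Rbl1) and p130, and E2F6 represses without pocket proteins through Polycomb complexes. E2F7 and E2F8 are atypical repressors that bind DNA without a DP partner, are themselves E2F targets, and shut down the activators and their targets late in S phase. Mature podocytes are resting cells that rarely complete division.

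Promoter windows are shown for the 4 members with the largest day 5 log2 fold changes, because E2F genes are known to be regulated through E2F sites of their own. Each window holds 250 bases before and 50 bases from an annotated start site, taken from RefSeq on build GRCm38.p6, and is written 5′ to 3′ on the gene's strand. Capitals mark matches on either strand to the E2F motif (TTTCGCGC or TTTGGCGC), the E2F core (the word TTCGCGC, the word TTGGCGC or the word GGCGGGAA, of which the shorter words lie inside the E2F motif), the cell cycle homology region CHR (the word TTTGAA, with the variant TTCGAA) and the box named CCAAT for its letters. The windows lie at chr4:136172024-136172323 on the plus strand for E2f2, at chr7:48881547-48881846 on the minus strand for E2f8, at chr10:110745189-110745488 on the plus strand for E2f7 and at chr2:157204485-157204784 on the minus strand for Rbl1.
E2f2: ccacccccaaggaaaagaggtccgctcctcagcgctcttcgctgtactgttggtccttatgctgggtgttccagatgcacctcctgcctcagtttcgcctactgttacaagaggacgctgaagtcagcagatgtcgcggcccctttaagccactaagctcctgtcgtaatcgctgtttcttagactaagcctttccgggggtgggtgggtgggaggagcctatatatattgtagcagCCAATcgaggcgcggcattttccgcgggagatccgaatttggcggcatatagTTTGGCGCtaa
E2f8: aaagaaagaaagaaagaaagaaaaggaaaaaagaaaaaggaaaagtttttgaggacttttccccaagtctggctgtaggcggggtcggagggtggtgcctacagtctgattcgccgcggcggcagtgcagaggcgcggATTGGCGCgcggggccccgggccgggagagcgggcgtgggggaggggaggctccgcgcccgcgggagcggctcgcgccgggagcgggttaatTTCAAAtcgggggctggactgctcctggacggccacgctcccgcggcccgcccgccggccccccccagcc
E2f7: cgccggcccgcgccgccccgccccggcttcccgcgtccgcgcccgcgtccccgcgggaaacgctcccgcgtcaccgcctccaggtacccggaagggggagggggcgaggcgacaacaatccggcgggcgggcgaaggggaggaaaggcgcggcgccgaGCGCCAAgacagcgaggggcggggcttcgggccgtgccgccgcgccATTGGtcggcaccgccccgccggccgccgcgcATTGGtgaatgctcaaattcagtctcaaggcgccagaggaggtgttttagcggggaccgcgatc
Rbl1: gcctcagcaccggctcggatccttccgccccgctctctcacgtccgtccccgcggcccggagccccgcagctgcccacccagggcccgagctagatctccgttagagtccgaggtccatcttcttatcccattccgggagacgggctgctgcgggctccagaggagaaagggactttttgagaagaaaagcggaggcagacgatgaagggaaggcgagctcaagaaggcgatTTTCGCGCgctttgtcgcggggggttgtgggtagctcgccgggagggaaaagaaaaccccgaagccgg

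RefSeq windows were matched for 7 of the 10 members (9 windows, with an extra start site each for E2f2 and E2f3), and E2f4, E2f5 and Rb1 had no entry. The E2F motif was found in the E2f2 window at position 39, counting the start base as 0, and in the Rbl1 window at position -18. It occurs in 0.813% of 32851 windows of all genes and in 1.45% of 13655 windows of tested genes. The E2F core was found in windows of E2f2, E2f3, E2f7, E2f8 and Rbl1, against 5.91% of all windows and 10.1% of those of tested genes. The windows at the extra start sites of E2f2 and E2f3 held no core. In E2f8 the core lies at position -111 and shares 4 bases with a CCAAT box on the other strand, and a CHR lies at position -20. These words are not particular to E2f8. E2f3, which was not called, held cores at positions -12 and 18, a CHR at -23 and 3 CCAAT boxes in its other window. A CHR also lies at position -31 at the extra E2f2 start site. A CHR is held by 19.2% of all windows and 14.1% of windows of tested genes, and a CCAAT box by 37.4% and 37.5%. Neither the E2f1 window nor the E2f6 window held any of these words. The E2f1 and E2f8 start sites of the table lie 466 and 477 bases inside the RefSeq gene, so other start sites of these genes were not searched. A match is a run of letters in the window and was not tested for binding.

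The levels of the members in control glomeruli were spread over a wide range, and the repressor E2F4 was the most abundant member. Mean control TPM was 62.1 ± 8.26 (SD, n = 5) for E2f4, 45.9 ± 1.20 for E2f6, 26.9 ± 4.48 for E2f1, 25.4 ± 2.36 for Rb1 and 24.3 ± 2.71 for E2f5. It was 11.9 ± 1.63 for Rbl1, 9.75 ± 0.610 for E2f3, 4.66 ± 1.38 for E2f7, 1.15 ± 0.597 for E2f2 and 0.151 ± 0.0588 for E2f8. Along this order, E2f1 and Rb1, Rb1 and E2f5, and Rbl1 and E2f3 had overlapping control libraries, whereas each other pair of neighbours was separated in all 5.

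At day 5 of MN, E2f2 and E2f8 rose, and none of the 10 members was called lower. E2f2 encodes an activator and E2f8 an atypical repressor, so the change included members of opposite function. Differences were tested with limma on log2(scaled TPM + 0.5), and a gene was called where its Benjamini-Hochberg adjusted p was under 0.05 and its log2 fold change was beyond 0.5 in either direction. In the comparison of day 5 MN with control, 2 of 10 members were called higher against 2.42% of all tested genes, and 0 of 10 were called lower against 0.789%. Of the called members, E2f8 passed the filter only through the day 5 MN libraries. Overlap of libraries was judged throughout on TPM as deposited, without the scaling used in the test. Libraries did not overlap, with day 5 MN above control, for 2 members against 5.07% of all tested genes. For 1 member (E2f6) day 5 MN was below control, against 5.71%. In bulk glomeruli, a change in the number of cells of a type and a change in RNA per cell cannot be told apart.

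**Figure D1:**
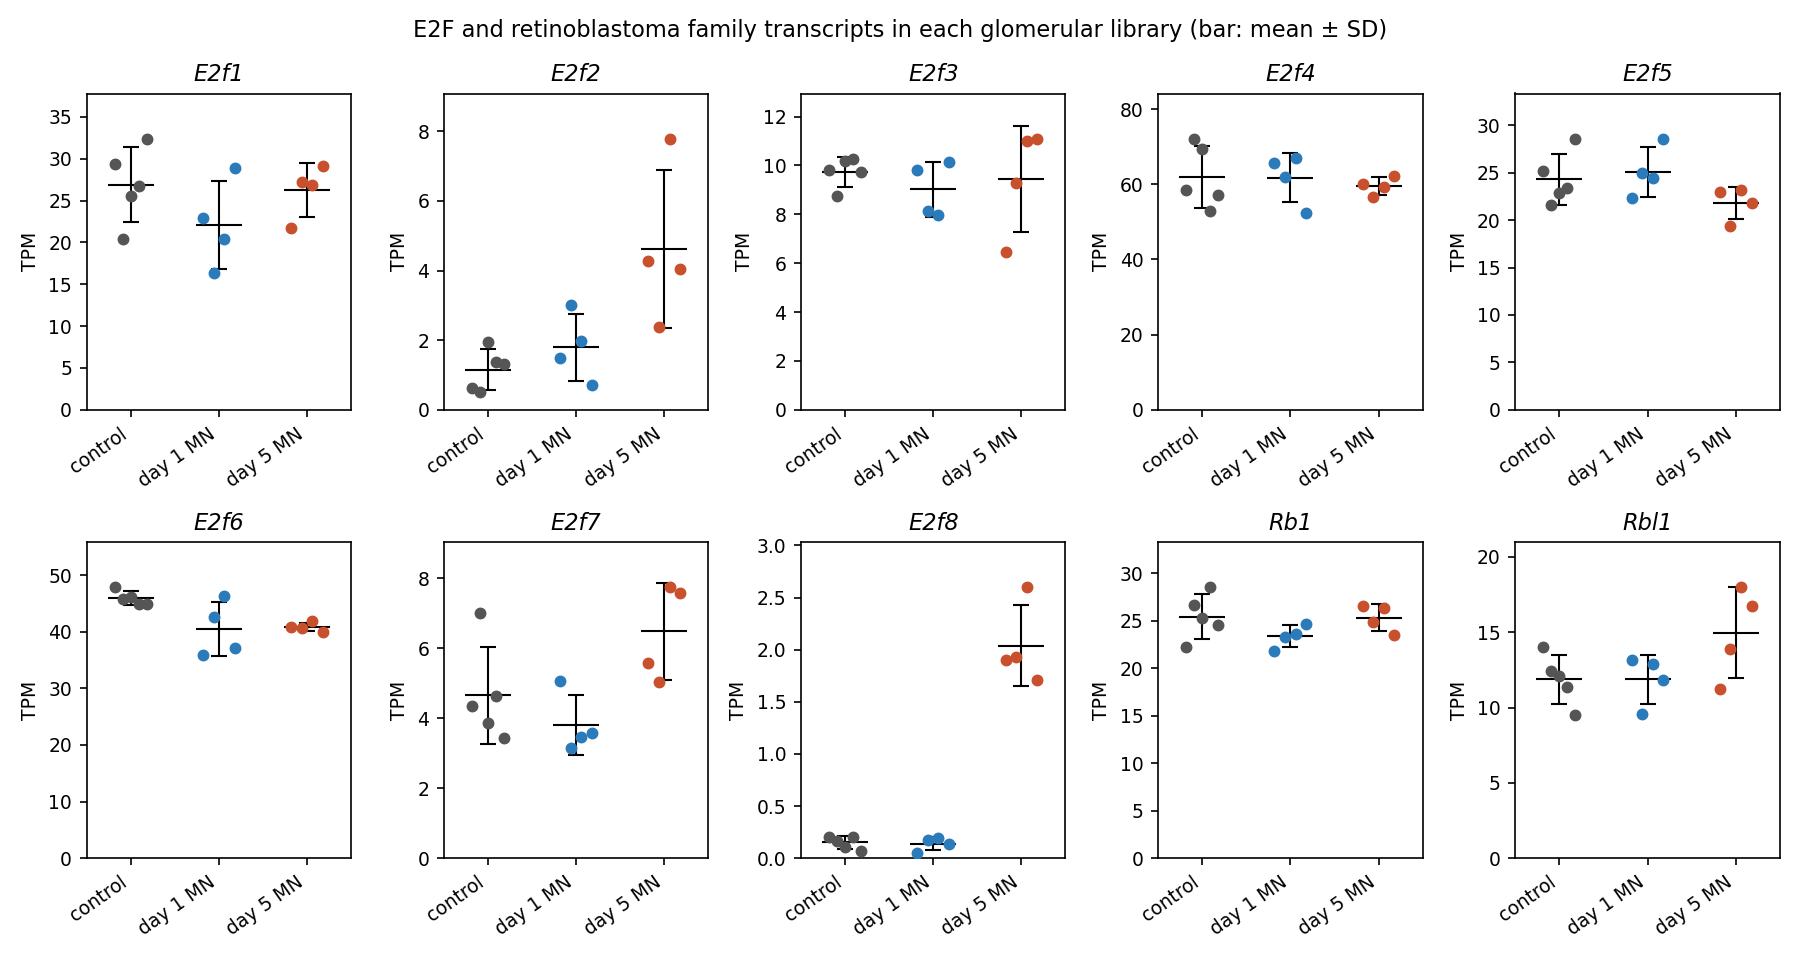
TPM (vertical axis, from 0) of each of the 10 members in every library of the control (n = 5), day 1 MN (n = 4) and day 5 MN (n = 4) groups; points are libraries, and bars give the mean ± SD. The 4 day 5 MN libraries stand clear of all others for E2f8 (1.71 to 2.60 against at most 0.205), and clear of control for E2f2. E2f1, E2f3, E2f4, E2f5, E2f7, Rb1 and Rbl1 overlap in every pair of groups.

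Among the activators, E2f2 (chr4:135899585-135923368, plus strand, GRCm39) was measured at 0.610, 0.515, 1.96, 1.36 and 1.32 TPM in control replicates 1 to 5. It was at 1.49, 3.01, 1.96 and 0.70 TPM in day 1 MN and at 4.27, 2.38, 7.79 and 4.03 TPM in day 5 MN replicates 1 to 4. All 4 day 5 MN libraries lay above all 5 control libraries, whereas day 5 MN replicate 2 lay below day 1 MN replicate 2. Mean TPM was 4.0 times the control mean, and the log2 fold change was 1.63 (SE 0.37, 95% confidence interval 0.84 to 2.42, limma adjusted p = 0.0177). The call was lost without day 5 MN replicate 1 (limma adjusted p = 0.0524) and without day 5 MN replicate 3 (limma adjusted p = 0.0553), with log2 fold changes of 1.61 and 1.38. Day 5 MN replicate 3 was the highest library for E2f2, E2f7, E2f8 and Rbl1 alike. No exon of E2f2 overlapped another gene in the annotation.

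E2f1 (chr2:154401326-154411812, minus strand), the best studied activator, was not called. Its TPM ran from 20.4 to 32.4 in control, from 16.4 to 28.9 in day 1 MN and from 21.7 to 29.2 in day 5 MN, and the 3 groups overlapped. The log2 fold change at day 5 was 0.01 with a 95% confidence interval of -0.34 to 0.35 (limma adjusted p = 0.990). E2f3, an activator with long and short isoforms that the gene-level table does not separate, had a day 5 log2 fold change of -0.03 with an interval of -0.32 to 0.25 (limma adjusted p = 0.928). Its day 5 MN libraries were spread more widely, at 6.46, 9.30, 11 and 11.1 TPM, than the control libraries at 8.74 to 10.3. The upper bound for E2f1 was below the lower bound for E2f2. The share of E2f2 in activator TPM went from 3.01% ± 1.49 in control to 5.89% ± 3.89 at day 1 and 11.4% ± 4.77 at day 5 (SD, n = 5, 4 and 4).

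Among the atypical repressors, E2f8 (chr7:48516176-48531452, minus strand) was at 0.202, 0.167, 0.112, 0.205 and 0.0701 TPM in control replicates 1 to 5. It was at 0.0540, 0.179, 0.190 and 0.132 TPM in day 1 MN and at 1.90, 1.93, 2.60 and 1.71 TPM in day 5 MN replicates 1 to 4. All 4 day 5 MN libraries were above all 9 others. The day 5 MN mean was 13.5 times the control mean, and the log2 fold change was 1.97 (SE 0.22, interval 1.5 to 2.44, limma adjusted p = 0.000138), a smaller ratio because 0.5 is added to every value before the logarithm. E2f8 reached 1 TPM in 0 of 5 control, 0 of 4 day 1 MN and 4 of 4 day 5 MN libraries and so entered the test only through the group in which it was high. The call held without each library in turn, with log2 fold changes between 1.88 and 2.04. These fits kept the filter set on all 13 libraries. Without any 1 of the day 5 MN libraries, E2f8 would not reach 1 TPM in the 4 libraries that the filter requires. Its calls in those fits are therefore no further support.

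E2f7 (chr10:110581300-110623245, plus strand), the partner of E2F8 in homodimers and heterodimers, did not pass the test. It was at 4.36, 7.0, 3.86, 4.62 and 3.45 TPM in control, at 5.07, 3.15, 3.45 and 3.57 TPM in day 1 MN and at 5.56, 5.03, 7.74 and 7.58 TPM in day 5 MN. Control replicate 2 lay among the day 5 MN libraries and kept the groups overlapping. The log2 fold change was 0.48 (SE 0.19, interval 0.08 to 0.89, limma adjusted p = 0.169), and without control replicate 2 it was 0.62 with a limma adjusted p of 0.0478, which passed. Control replicate 2 also had the lowest summed podocyte markers (6481 TPM, against 8136 to 8763 in the other control libraries), and the part of this in the E2f7 value was not tested. E2f8 made up 3.16% ± 1.11 of the atypical TPM in control, 3.81% ± 2.01 at day 1 and 24.2% ± 4.01 at day 5 (SD, n = 5, 4 and 4).

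The canonical repressors, the most abundant class, showed no call. E2f4, the main E2F of resting cells, had a day 5 log2 fold change of -0.01 (interval -0.21 to 0.19, limma adjusted p = 0.963), and E2f5, its relative, had -0.11 (interval -0.33 to 0.10, limma adjusted p = 0.595). E2f6, which works in Polycomb complexes, was at 47.9, 45.8, 46.1, 45.0 and 44.9 TPM in control, at 35.9, 42.6, 46.2 and 37.2 TPM in day 1 MN and at 40.8, 40.7, 41.9 and 40.02 TPM in day 5 MN. Every day 5 MN library was below every control library, and day 1 MN libraries were spread over both ranges. The log2 fold change was -0.13 (SE 0.07, interval -0.28 to 0.01, limma adjusted p = 0.307), which is under the fold threshold and did not pass. The SD of E2f6 was 1.20 TPM in control and 0.766 TPM in day 5 MN.

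Of the pocket proteins, Rb1, which restrains the activators, had a day 5 log2 fold change of 0.03 (interval -0.13 to 0.19, limma adjusted p = 0.880), with 22.2 to 28.5 TPM in control and 23.5 to 26.5 TPM in day 5 MN. Rbl1, whose product p107 binds E2F4 and E2F5 and which is itself an E2F target, was at 14.0, 12.4, 12.1, 11.4 and 9.51 TPM in control, at 13.2, 9.56, 12.9 and 11.8 TPM in day 1 MN and at 11.2, 13.9, 17.99 and 16.7 TPM in day 5 MN. Only 2 of the 4 day 5 MN libraries, replicates 3 and 4, lay above all control libraries. Its log2 fold change was 0.34 (SE 0.13, interval 0.06 to 0.63, limma adjusted p = 0.153), short of the test. Rbl2, which encodes p130 and is no member, had 31.9 ± 1.93 TPM in control and 28.4 ± 1.05 TPM in day 5 MN (SD, n = 5 and 4), with a log2 fold change of -0.13 (limma adjusted p = 0.294).

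**Figure D2:**
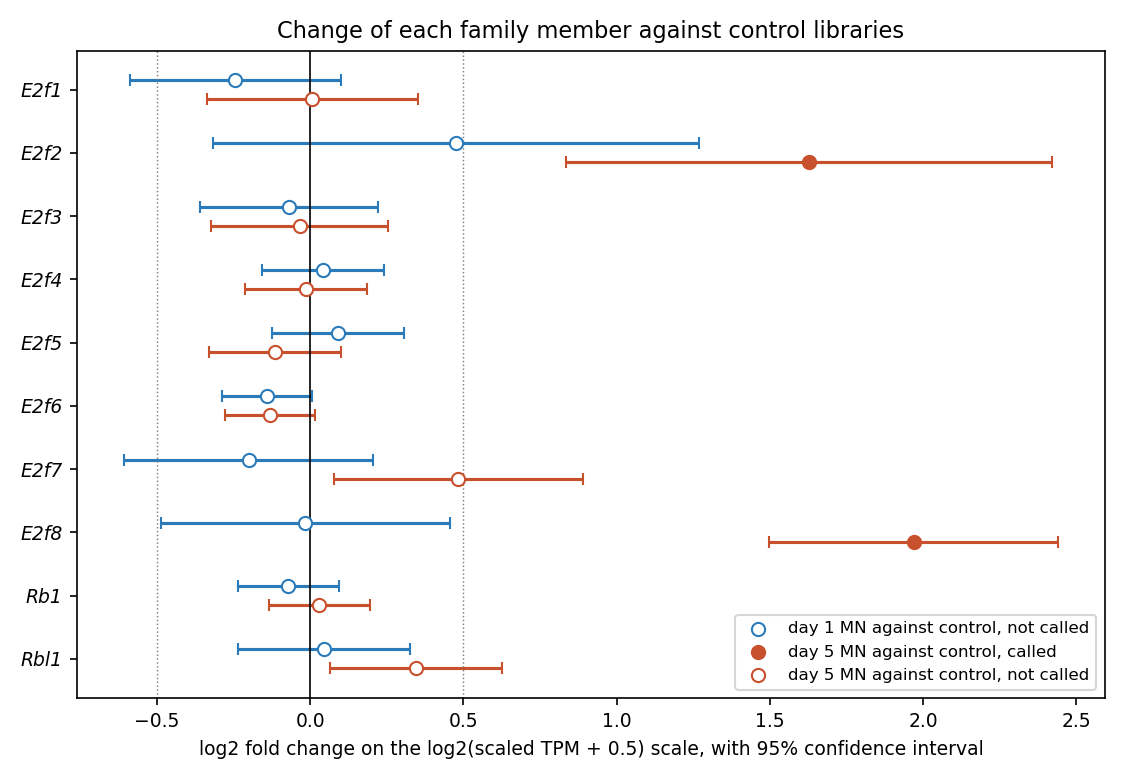
Log2 fold change on the log2(scaled TPM + 0.5) scale (horizontal axis) with its 95% confidence interval for each member at day 1 MN and day 5 MN against control; filled points passed the test, open points did not, and dotted lines mark the fold threshold of 0.5. E2f2 (1.63) and E2f8 (1.97) at day 5 are the filled points, and the intervals of E2f7 and Rbl1 at day 5 lie above 0 although their adjusted p-values did not pass.

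At day 1 of MN, no member was called. The counts were 0 of 10 higher against 0.0559% of tested genes and 0 of 10 lower against 0.0349% by limma, and 0 of 10 had an unadjusted p under 0.05, beside 1799 of 14322 tested genes. No member separated day 1 MN from control libraries, against 0.908% of tested genes higher and 3.32% lower. E2f2 had the largest log2 fold change, 0.48 with a wide interval of -0.32 to 1.27 (limma adjusted p = 0.621), and E2f1 had -0.24 with an interval of -0.59 to 0.10 (limma adjusted p = 0.553). E2f8 was at -0.02 with an interval of -0.49 to 0.46. The other log2 fold changes at day 1 lay between -0.20 and 0.09. The summed TPM of 7 proximal tubule markers ran from 4150 to 7519 in day 1 MN, from 2329 to 3959 in control replicates 1 to 4 and from 3060 to 3690 in day 5 MN, and was 8670 in control replicate 5. All 7 had a positive log2 fold change at day 1 (median 0.74), and 0 were called. Markers of the loop, distal tubule and collecting duct summed to 494 to 897 TPM in day 1 MN, 255 to 517 TPM in control and 345 to 477 TPM in day 5 MN, with log2 fold changes at day 1 above 0 for 6 of 6 (median 0.58), led by Calb1 (1.49, limma adjusted p = 0.0982) and Slc12a3 (1.40, limma adjusted p = 0.130). The part of tubule RNA in the day 1 values was not tested.

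Day 5 MN was also compared with day 1 MN, which shares the day 5 MN libraries with the comparison above. E2f8 alone was called, with a log2 fold change of 1.99 (SE 0.23, interval 1.49 to 2.48, limma adjusted p = 0.000276). This is 1 of 10 members called higher against 1.41% of tested genes, and 0 of 10 called lower against 0.398%. E2f8 entered the test only through the day 5 MN libraries, so nothing is read from this count. E2f8 was also the only member whose libraries did not overlap, which held for 6.12% of tested genes with day 5 MN higher and for 4.93% with day 5 MN lower. E2f2 had a log2 fold change of 1.15 (interval 0.32 to 1.99, limma adjusted p = 0.161) and E2f7 of 0.68 (interval 0.25 to 1.11, limma adjusted p = 0.103), which passed only without control replicate 2 (limma adjusted p = 0.0490). The value for Rbl1 was 0.30 (interval 0.00 to 0.60), and for E2f1 it was 0.25 (interval -0.11 to 0.61).

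Summed by class, the ratio of activators to repressors overlapped among the 3 groups, whereas the atypical share in day 5 MN lay above all other libraries. Activator TPM (E2f1 to E2f3) was 37.8 ± 5.06 in control, 32.9 ± 5.29 in day 1 MN and 40.3 ± 6.04 in day 5 MN, and canonical repressor TPM (E2f4 to E2f6) was 132 ± 7.24, 127 ± 8.29 and 122 ± 3.66 (SD, n = 5, 4 and 4). The ratio of activator to all repressor TPM was 0.277 ± 0.0471 in control, 0.253 ± 0.0550 in day 1 MN and 0.308 ± 0.0422 in day 5 MN, with ranges of 0.202 to 0.324, 0.207 to 0.326 and 0.247 to 0.339 that overlapped. For the atypical class, E2f7 plus E2f8 was at 4.56, 7.16, 3.97, 4.83 and 3.52 TPM in control, at 5.12, 3.33, 3.64 and 3.70 TPM in day 1 MN and at 7.46, 6.96, 10.3 and 9.29 TPM in day 5 MN. Of the day 5 MN libraries, only replicate 2 was below the highest control library, replicate 2. The atypical share of all E2F TPM was 2.75% ± 0.817 in control, 2.41% ± 0.496 in day 1 MN and 4.95% ± 0.656 in day 5 MN (SD, n = 5, 4 and 4). Its range was 1.98% to 4.06% in control, 2.07% to 3.14% in day 1 MN and 4.28% to 5.73% in day 5 MN, so the day 5 MN libraries stood clear of the other 9. These sums weigh abundant genes most, and no test was run on them.

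**Figure D3:**
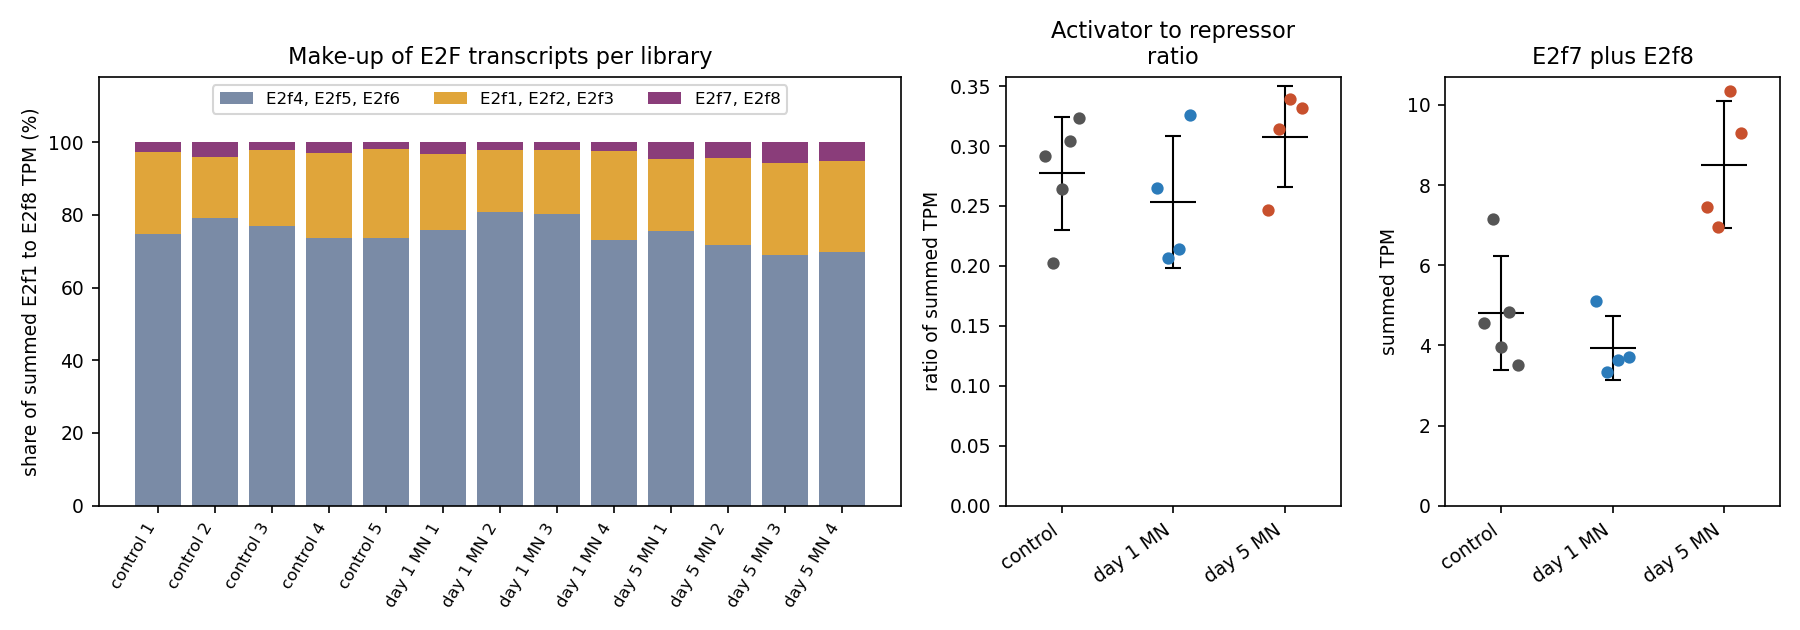
Left, share (%) of summed E2f1 to E2f8 TPM held by canonical repressors, activators and atypical repressors in each library; middle, ratio of activator to repressor TPM; right, summed TPM of E2f7 and E2f8, where points are libraries and bars give the mean ± SD of control (n = 5), day 1 MN (n = 4) and day 5 MN (n = 4). E2f4, E2f5 and E2f6 hold 68.9% to 80.8% of E2F transcripts in every library, the ratios overlap, and the mean atypical sum is highest in day 5 MN. Its range in day 5 MN (6.96 to 10.3) overlaps control, where replicate 2 is at 7.16.

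Genes around the family were described from lists of their partners, regulators and targets, which were drawn up with results of these data known, so their counts are no independent evidence of a direction. Over all tested genes, 2.42% were called higher at day 5 and 0.789% lower, shares that stand beside each list count at day 5. Of 10 genes for the pocket protein p130, DP partners and the MuvB core with its activators, 1 was called higher at day 5 and 0 lower, with a median log2 fold change of 0.17. The called gene was Foxm1, a factor that drives late cell cycle genes with MuvB, at 3.12 to 5.18 TPM in control and 7.78 to 13.7 TPM in day 5 MN (log2 fold change 1.25, SE 0.18, limma adjusted p = 0.000792). Tfdp1, the main DP partner of the E2Fs, had a log2 fold change of 0.31 (limma adjusted p = 0.0410), under the fold threshold. Of 8 cyclins D and E and their kinases, which phosphorylate RB, 1 was called higher and 0 lower (median 0.26). It was Ccne2, an E2F target and cyclin, with a log2 fold change of 0.94 (SE 0.19, limma adjusted p = 0.00887). Ccne1, the other cyclin E gene, was at 0.831 to 1.64 TPM in control and 1.82 to 5.70 TPM in day 5 MN, above all control libraries, with a log2 fold change of 1.08 (limma adjusted p = 0.0714). It passed without day 1 MN replicate 4 (limma adjusted p = 0.0272), with only the compared groups fitted (0.0476) and with library weights (0.0364), which makes 2 of 8 called.

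Of 7 inhibitors of cyclin-dependent kinases, 3 were called higher at day 5 and 0 lower (median 0.43), against 2.42% and 0.789% of all tested genes. Cdkn2a, the locus of p16 and p19 ARF, was listed at 0 to 0.139 TPM in control and at 1.25 to 2.12 TPM in day 5 MN, with a log2 fold change of 1.93 (limma adjusted p = 0.000639), and passed the filter only through the day 5 MN libraries. Cdkn2c, which encodes p18, rose from 11.5 ± 2.60 to 27.7 ± 6.24 TPM (SD, n = 5 and 4), a log2 fold change of 1.27 (limma adjusted p = 0.000750). Cdkn1c, which encodes the podocyte-expressed inhibitor p57, had a log2 fold change of 0.72 (limma adjusted p = 0.000708). Of 7 ubiquitin ligase factors that act on E2Fs or their regulators, 2 were called higher and 0 lower, with 4 positive and 3 negative log2 fold changes. The called genes were Cks1b, with a log2 fold change of 1.62, and Ccnf, with 1.29 (limma adjusted p = 1.16e-05 and 0.00235).

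Most textbook targets of E2F and of the DREAM complex, which represses cell cycle genes in resting cells with E2F4 and p130, rose at day 5. Over all tested genes, 2.42% were called higher at day 5 and 0.789% lower. Of 30 targets of the G1/S transition and S phase, 20 were called higher at day 5 and 0 lower. Their median log2 fold change was 0.80, beside a median of -0.00 over all tested genes. The leading targets were Rrm2 (a ribonucleotide reductase subunit, log2 fold change 2.69), Ccna2 (cyclin A, 2.51), Uhrf1 (a cofactor of DNA methylation, 2.04) and Mcm6 (a helicase subunit, 1.99). Of 20 DREAM targets of G2 and M phase, 19 were called higher and 0 lower, with a median of 2.27, led by Ube2c (a ubiquitin-conjugating enzyme of the anaphase-promoting complex, 3.26), Birc5 (survivin, 2.99), Ccnb2 (cyclin B, 2.93) and Cdk1 (the mitotic kinase, 2.92). Of these called genes, 1 of 20 and 8 of 19 passed the filter only through the day 5 MN libraries. With TPM of at least 1 required in every library, 18 and 7 were called.

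Repressive cofactors showed no call at day 5, beside 2.42% of all tested genes called higher and 0.789% called lower. None of 12 co-repressors that bind pocket proteins or E2Fs was called, with log2 fold changes from -0.17 (Kdm5a) to 0.26 (Suv39h2) and a median of 0.01. None of 9 subunits of the Polycomb complex that works with E2F6 was called, with values from -0.23 (Rnf2) to 0.17 (Cbx3). Of 7 apoptosis genes known as E2F1 targets, 6 were tested (Trp73 was below the filter) and 0 were called. Among them Bbc3, which encodes PUMA, had a log2 fold change of 0.65 (limma adjusted p = 0.0641) and Bcl2l11, which encodes BIM, had -0.42 (limma adjusted p = 0.0710). Bbc3 passed without control replicate 1 (adjusted p = 0.0198) and without day 1 MN replicate 3 (adjusted p = 0.0309). At day 1, 0 genes of these 9 lists were called in either direction, beside 0.0559% of all tested genes called higher and 0.0349% lower. In the alternatives, 0 were called higher at day 1.

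**Figure D4:**
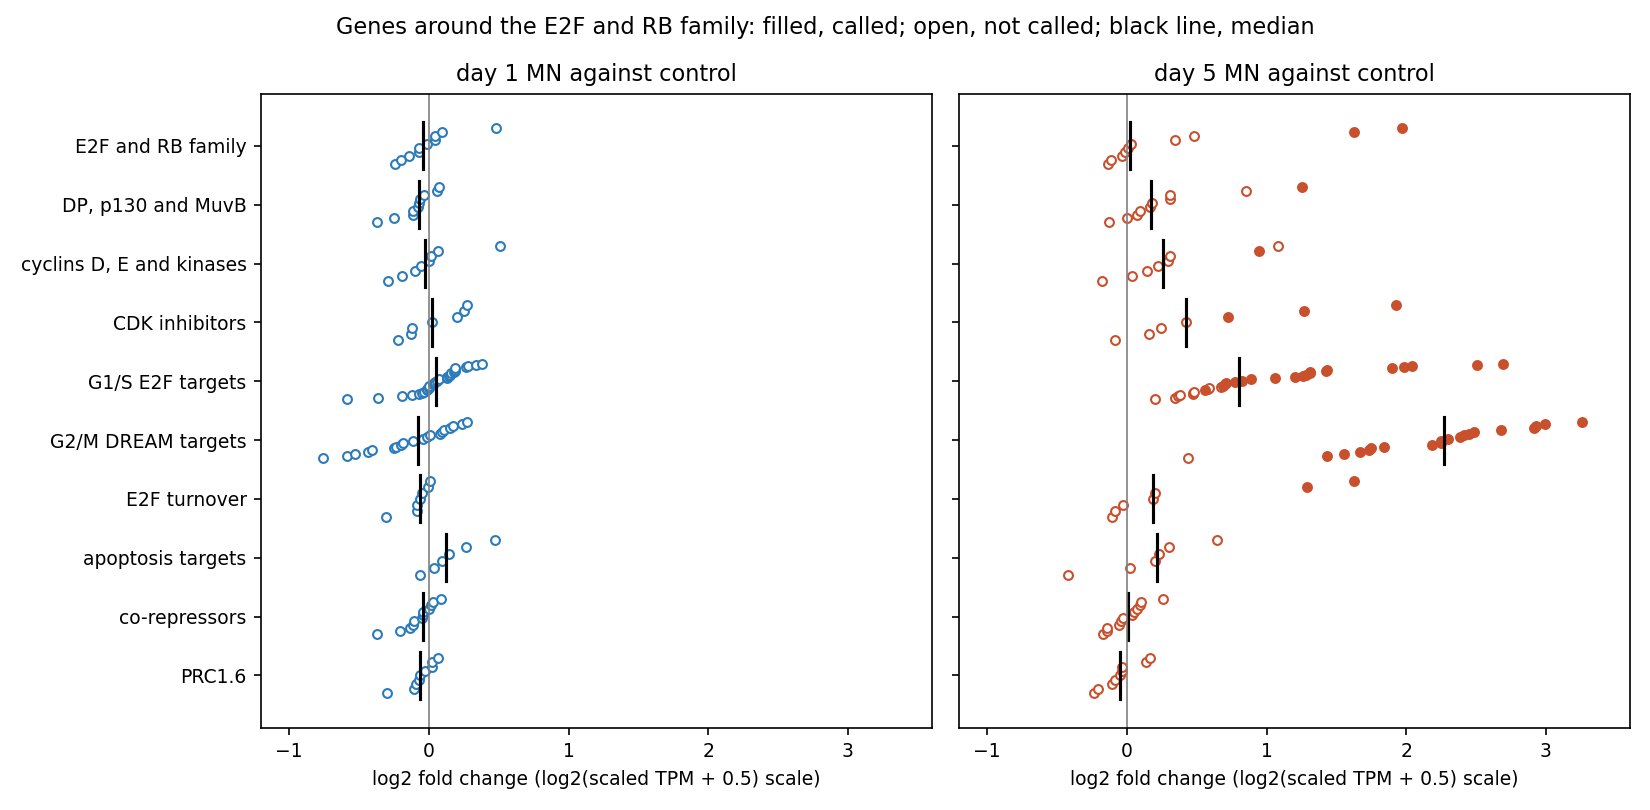
Log2 fold change on the log2(scaled TPM + 0.5) scale (horizontal axis) of the family and of 9 lists of related genes (rows) at day 1 MN (left) and day 5 MN (right) against control; points are genes, filled where they passed the test, and black lines are medians. At day 1 no point is filled, and at day 5 the medians are 0.02 for the family, 0.80 for the G1/S targets and 2.27 for the G2/M targets.

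The 5 genes whose pattern over the 13 libraries was most like that of E2f8 were taken by their correlation. Pearson's r on the log2 scale was 0.987 for Tpx2 (a spindle factor), 0.985 for Nuf2 (kinetochore), 0.985 for Cks1b (a subunit of cyclin-dependent kinase complexes), 0.984 for Knl1 (kinetochore) and 0.984 for Ska1 (kinetochore). Within the family, r with E2f8 was 0.77 for E2f2, 0.69 for E2f7, 0.65 for Rbl1 and 0.16 for E2f1. The genes most like E2f1 were Plxdc2 (0.953), Fkbp3 (0.918), Ormdl3 (0.862), Uprt (0.861) and Rfx7 (0.842), and r of E2f1 with E2f2 was -0.11. These values describe libraries that share the same group structure, and carry no test.

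The labelled tissue was checked against cell type markers. Podocyte markers summed to 6481 to 8763 TPM in control, 6864 to 8708 TPM in day 1 MN and 7199 to 7510 TPM in day 5 MN, and none of the 6 was at 0 in any library. Leukocyte markers summed to 27.4 to 47.5, 37.2 to 55.0 and 25.0 to 55.9 TPM, on average mostly Lyz2. Of the 6 tested leukocyte markers, 0 were called at day 5, while 5 had a positive and 1 a negative log2 fold change (median 0.31). The largest was that of Ptprc (0.71, limma adjusted p = 0.131). Adgre1, Cd3e and Cd79a were below the filter, and the part of leukocytes in the E2F values was not tested. Red cell markers summed to 207 to 472, 91.5 to 282 and 205 to 473 TPM. Of 4 parietal epithelial markers, Cldn1 (log2 fold change 1.08, limma adjusted p = 0.0036) and Cd44 (0.88, limma adjusted p = 0.0135) were higher at day 5, together with E2f2 and E2f8, while Pax8 (0.22) and Cd24a (-0.14) were not called. Their sum, mostly Cd24a, ran from 839 to 953 TPM in control, from 650.1 to 874 TPM in day 1 MN and from 706 to 884 TPM in day 5 MN, and the part of these cells in the E2F values was not tested. Exons of 7 members overlap a gene on the opposite strand, E2f8, E2f7 and Rbl1 included, and whether counting used strand is not given in the sources used here. Of the 9 overlapping genes, 4 were in the expression table, and the largest, Rbis beside E2f5, was at 166 ± 9.28 TPM in control and 139 ± 10.05 TPM in day 5 MN (SD, n = 5 and 4).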

How the data were processed

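Bulk RNA-Seq of isolated glomeruli was analysed in 13 libraries: 5 control, 4 day 1 MN and 4 day 5 MN. Per the labels and methods of the study, the authors checked reads with FastQC 0.11.9, trimmed them with Trimmomatic 0.39 and quantified them on GRCm39 with kallisto 0.46.2, and the deposited values are TPM per gene symbol. TPM keeps no depth, so no count test could be run and a log-scale fit was used. All samples of the table were used. Each library was scaled by a median-of-ratios factor (0.955 to 1.04, from 15772 genes), and log2(TPM + 0.5) was taken. The 14322 of 35967 genes that reached 1 TPM in 4 or more libraries were fitted with limma 3.58.1 in R 4.3.3, with all 3 groups in the model, a mean-variance trend and Benjamini-Hochberg adjustment over all tested genes of a comparison. Spearman correlations between libraries were 0.971 to 0.988. A call needed an adjusted p under 0.05 and a log2 fold change beyond 0.5 in either direction, as in the study. The fit was tested on simulated data.

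Replicate numbers link no libraries across groups, and the correlations of same-numbered libraries' deviations ran from -0.056 to 0.091, so they were not taken as pairs. Libraries of a group came from separate animals, per the study. All 10 members are named. From each list of related genes, at most 4 genes called with the largest change, or without a call the largest values, are named, with others given for their role, and the 5 most correlated genes are given for E2f8, the tested member with the largest day 5 change, and for E2f1. Members and lists were chosen with earlier results of these data known. Gene positions are from GENCODE on GRCm39 and promoter windows from RefSeq on GRCm38.p6. BLAST+ 2.17.0 found no other gene of at least 90% identity over at least 50% of a member's transcript. Alternatives were the pseudocount, the scaling, the filter on low TPM, the variance model, the samples fitted, a replicate block, library weights, the fold threshold and leaving out each library.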

Additional observations from a re-analysis of the deposited data

Results flagged for a closer look

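E2f8 differed between the MN time points: its log2 fold change for day 5 MN against day 1 MN was 1.99 (SE 0.23, limma adjusted p = 0.000276), higher in 4 of 4 day 5 MN libraries than in all 4 day 1 MN libraries. It is listed because the test of that difference itself passed. E2f8 reached 1 TPM only in day 5 MN libraries and entered the test through them, so the listing is no further evidence of a rise. In none of the 30 sets of values of a member in a group did a library stand far from the rest by Dixon's criterion.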

How the results depend on the processing

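E2f8 was called higher at day 5 in 23 of 23 alternatives that gave a value (log2 fold change 1.40 to 3.13, adjusted p 3.45e-06 to 0.00558) and E2f2 in 21 of 23 (1.36 to 1.97, 0.0126 to 0.0553). Of the 23, 13 left out a library and kept the filter set on all 13 libraries. With the filter set anew, E2f8 would give no value without any 1 of the day 5 MN libraries. As E2f8 entered only through day 5 MN, its count of calls is no further support. Requiring TPM of at least 1 in every library removed both genes from the test, so 0 members were called at day 5 and 0 against day 1. Leaving out each library gave 1 to 3 members called at day 5 (3 with E2f7, without control replicate 2), 0 at day 1 and 1 to 2 against day 1. Over all tested genes these ranges were 361 to 469, 3 to 218 and 184 to 437, against 460, 13 and 259, and the highest at day 1 (218) and against day 1 (437) came without control replicate 5. Calls at day 5 were 876 by adjusted p alone. Calls at day 1 were 6 with no filter, 7 in eBayes without the trend, 2 with only the compared groups fitted and 149 with the replicate block. Day 5 against day 1 gave 153 with the strict filter and 414 with only the compared groups. The replicate block gave 2, 0 and 1 members called, as without it, and 348 genes at day 5. A shared number is only a name here, so these are not paired values.

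Values near 0 changed sign. On unscaled TPM, E2f1 (-0.0270) and Rb1 (-0.00420) at day 5 and E2f4 (-0.00403) at day 1 did; with library weights, E2f3 (0.00192) and E2f4 (0.00227) at day 5 and Rbl1 (-0.0136) at day 1 did, as did Rbl1 under the replicate block (-0.0167). Leaving out a library gave day 5 ranges of -0.0945 to 0.0903 for E2f1, -0.11 to 0.11 for E2f3, -0.0702 to 0.0338 for E2f4 and -0.0181 to 0.0733 for Rb1, day 1 ranges of -0.0143 to 0.12 for E2f4, -0.0602 to 0.0513 for E2f8 and -0.0158 to 0.13 for Rbl1, and ranges for day 5 against day 1 of -0.0413 to 0.18 for E2f3 and -0.0444 to 0.0648 for E2f6. None of these values was called, and the cause was not tested. For genes near 1 TPM, such as E2f2 and E2f8, unknown depth limits the precision.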
